A study of Homo sapiens with 10 samples.

Results

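The AP-1 family genes described here are the FOS genes FOS, FOSB, FOSL1 and FOSL2, the JUN genes JUN, JUNB and JUND, and the related ATF3, BATF and BATF3. They were chosen by name, as 10 of the 19970 protein-coding genes on chromosomes 1 to 22 and X. Peaks of H3K27ac, a histone mark of active promoters and enhancers, were taken from a window of the gene body (GENCODE release 44, hg38) plus 50 kb on each side. The windows held 99 of the 76044 regions obtained by merging the peaks of all 8 lists. The study mapped H3K27ac by ChIP-seq in SKBR3 and MDA-MB-453, established breast cancer cell lines of the HER2 subtype, with and without TWEAK, a cytokine of the TNF family that acts through the receptor Fn14. All cells were grown in DMEM with 10% FBS and starved in optimem for 8 h. The TWEAK cells then received 10 ng/ml for 48 h, with fresh ligand at 24 h, and the others were untreated. Each line had 2 untreated and 2 TWEAK libraries with 1 peak list each, and 2 input libraries without lists were not used.

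AP-1 is a dimer of leucine zipper proteins that binds short DNA elements and switches on genes of proliferation, invasion and stress. FOS proteins bind DNA only with a partner, usually a JUN protein, whereas JUN proteins can also pair with each other. Kinases activated by growth factors and by TNF family ligands raise the transcription of several of these genes within minutes and phosphorylate their products. ATF3 is induced by stress, and BATF and BATF3 are best known from lymphocytes and dendritic cells, where they pair with JUN proteins.

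Acetylation was described by 3 measures. Presence means that a list held a peak within a region. Covered length is the number of bases of the window lying under peaks. Distances of regions are given to the nearest annotated start site of the gene, which is not always its first. Promoter percentile is the rank of the strongest peak within 1 kb of any start site of the gene, by the whole-number score in column 5 of its own list, where 100 is the highest and 0 means that no such peak was listed. The lists of SKBR3 held 43684 to 51687 peaks over 92.1 to 106 Mb and those of MDA-MB-453 held 36148 to 37813 peaks over 70.5 to 72.1 Mb, so covered length was longer in SKBR3 at the median gene as well. Peaks with a q-value under 1e-05 made up 39.4 to 52.6% of the SKBR3 lists and 59.8 to 63.8% of the MDA-MB-453 lists. The same percentile therefore need not stand for the same score in both lines. The 7 markers of luminal or HER2 cells had a promoter peak in all 8 lists, with ERBB2 at or above the 99.98th percentile, and CD3E and PTPRC of leukocytes had none. Of the fibroblast and endothelial markers, COL1A1 and CDH5 had promoter peaks in all 8 lists, and COL3A1, DCN and PECAM1 had none. KRT14 of basal cells had no promoter peak, and KRT5 and TP63 had one in 2 and 5 lists. In bulk chromatin, fewer acetylated cells and less acetylation per cell cannot be told apart. Copy number was not analysed here.

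Among the genes, the promoter percentile of BATF differed most between the lines. The promoter sequences below are those of BATF and of JUN, ATF3 and JUND, which held an element named below. They are the bases just upstream of the start site, from RefSeq (GRCh38.p14), cut where the GENCODE gene begins. Entries were found for 8 of the 10 genes. Capitals mark matches, on either strand, to the AP-1 element TGAGTCA, the cAMP response element TGACGTCA or the JUN-type element TGACATCA. A match to one of these cannot be a match to another, since their letters differ. Of the 8 genes, JUN and ATF3 held the JUN-type element, 67 and 123 bases before the RefSeq start, and JUND held the cAMP response element, 200 bases before it. The search covered the whole 250 bases before each RefSeq start, which can lie past the start of the GENCODE gene, as at ATF3. Among 35116 RefSeq promoters, 2.37% held the JUN-type element, 1.65% the cAMP response element and 4.20% the AP-1 element in the same 250 bases.
JUN promoter, chr1:58784049-58784297, minus strand: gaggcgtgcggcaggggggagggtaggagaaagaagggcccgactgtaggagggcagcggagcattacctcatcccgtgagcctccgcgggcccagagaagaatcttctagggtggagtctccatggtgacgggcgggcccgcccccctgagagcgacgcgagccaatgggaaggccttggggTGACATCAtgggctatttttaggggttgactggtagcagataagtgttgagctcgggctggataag
ATF3 promoter, chr1:212565157-212565333, plus strand: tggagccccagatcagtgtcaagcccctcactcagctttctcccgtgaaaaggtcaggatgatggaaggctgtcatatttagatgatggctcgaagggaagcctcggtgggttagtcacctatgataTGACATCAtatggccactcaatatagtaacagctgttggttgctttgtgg
JUND promoter, chr19:18281623-18281872, minus strand: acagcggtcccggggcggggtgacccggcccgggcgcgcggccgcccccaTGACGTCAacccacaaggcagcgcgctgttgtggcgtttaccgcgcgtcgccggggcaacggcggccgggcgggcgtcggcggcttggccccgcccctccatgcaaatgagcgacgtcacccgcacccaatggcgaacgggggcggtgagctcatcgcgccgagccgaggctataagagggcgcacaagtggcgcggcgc
BATF promoter, chr14:75522219-75522454, plus strand: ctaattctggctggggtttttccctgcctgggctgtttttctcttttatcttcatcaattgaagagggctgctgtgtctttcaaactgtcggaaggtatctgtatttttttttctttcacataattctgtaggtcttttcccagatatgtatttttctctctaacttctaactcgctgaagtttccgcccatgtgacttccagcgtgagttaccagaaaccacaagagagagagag

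The next stretch (hg38) lies just upstream of FOSL1 and is the 126 bases shared by the FOSL1 promoter peaks of both SKBR3 TWEAK lists. It held none of the 3 elements.
FOSL1 promoter stretch, chr11:65900808-65900933, minus strand: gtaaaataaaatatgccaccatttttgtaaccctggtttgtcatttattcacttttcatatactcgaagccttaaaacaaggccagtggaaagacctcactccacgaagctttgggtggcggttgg
Distal regions, which lie more than 1 kb from any protein-coding start site, made up 65 of the 99. In the 1000 bp around the midpoint, 19 of these 65 (29.2%) held the AP-1 element, against 25.4% of the 58773 distal regions of the series. The 120 bases around an AP-1 match are shown for a region listed only in SKBR3 (ATF3 intron), for a region listed only in MDA-MB-453 (upstream of FOSL1) and for a region downstream of BATF that ranked higher in SKBR3. The capitals in the last also mark a JUN-type element.
ATF3 intron, chr1:212595702-212595821, plus strand: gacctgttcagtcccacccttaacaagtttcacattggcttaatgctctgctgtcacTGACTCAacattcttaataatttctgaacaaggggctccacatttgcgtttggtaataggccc
Upstream of FOSL1, chr11:65911550-65911669, plus strand: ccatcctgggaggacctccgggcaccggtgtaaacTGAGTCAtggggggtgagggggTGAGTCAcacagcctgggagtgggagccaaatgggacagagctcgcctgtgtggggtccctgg
Downstream of BATF, chr14:75559898-75560017, plus strand: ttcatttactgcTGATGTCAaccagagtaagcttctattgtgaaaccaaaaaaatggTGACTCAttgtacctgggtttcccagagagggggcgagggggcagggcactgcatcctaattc

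**Figure D1:**
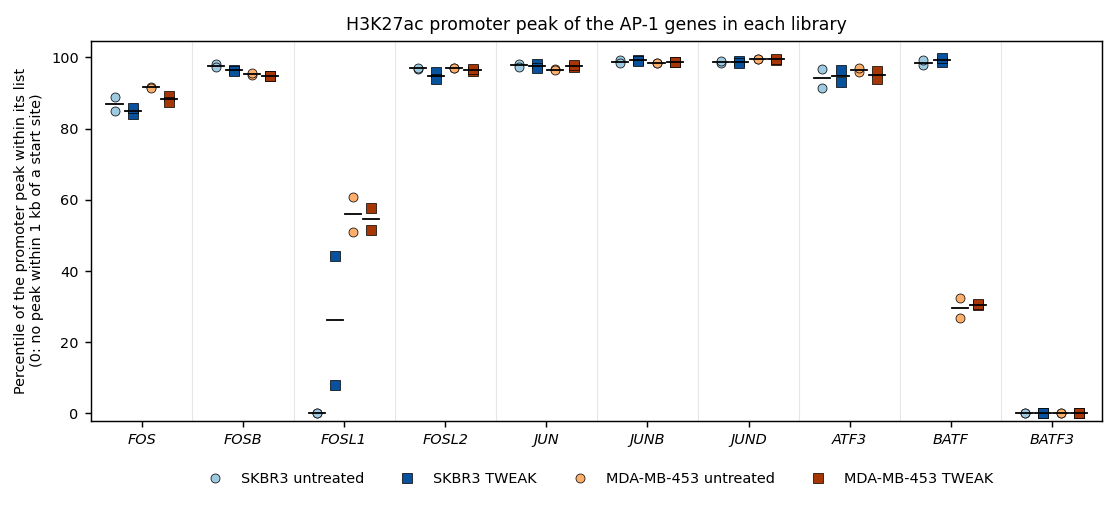
Promoter percentile of each gene, with 1 point per library and a line at the mean of the 2 libraries of a group; the vertical axis is the percentile within the library's own list, and 0 means no promoter peak. FOSB, FOSL2, JUN, JUNB, JUND and ATF3 lay above 91 in all 8 lists, BATF lay near 99 in SKBR3 and near 30 in MDA-MB-453, and BATF3 had no promoter peak.

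Most AP-1 promoters ranked high among the peaks of both lines. The percentile sets a promoter against all peaks of its list, distal ones included. How high promoters in general rank was not computed. FOSB, FOSL2, JUN, JUNB, JUND and ATF3 ranked between the 91.4th and the 99.7th percentile in all 8 lists, and FOS between the 84.1st and the 91.8th. FOSL1 and BATF differed widely between the lines, and BATF3 had no promoter peak in any list. Between the lines, the promoter percentile was called different for 4 of the 9 genes that could be tested (limma, Benjamini-Hochberg adjusted p under 0.05 over 13571 genes). It was higher in SKBR3 for BATF and FOSB, where 32.8% of all genes were called higher, and lower for FOSL1 and FOS, where 31.1% were called lower. The median difference was -0.80 points over the 9 genes and 0.13 points over all genes.

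**Figure D2:**
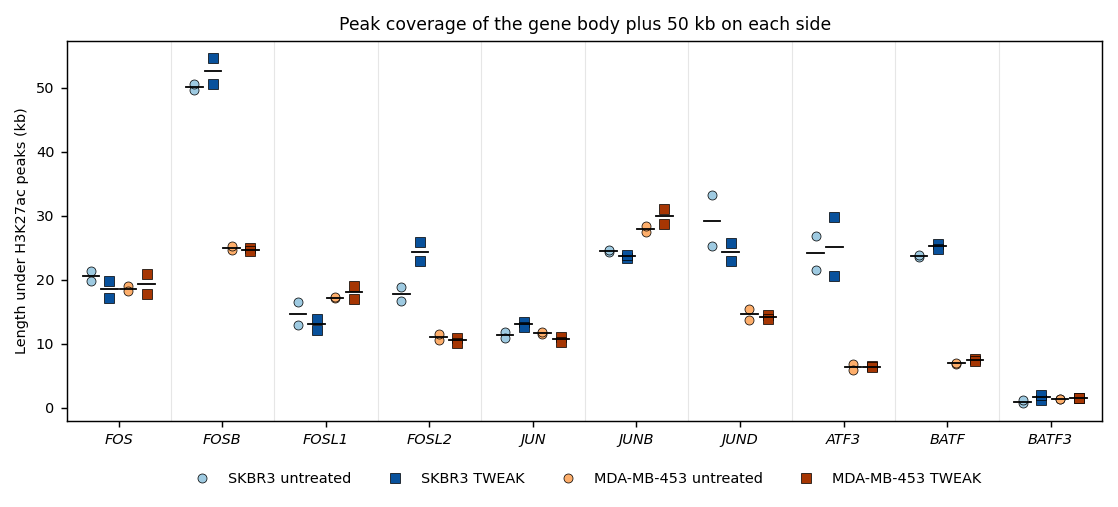
Covered length in kb of the window of each gene (gene body plus 50 kb on each side), with 1 point per library and a line at the mean of the 2 libraries of a group. FOSB, FOSL2, JUND, ATF3 and BATF lay higher in the 4 SKBR3 libraries than in the 4 MDA-MB-453 libraries, without overlap, and JUNB and FOSL1 lay lower.

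Covered length, over 18549 genes, was called different between the lines for 7 of the 10 genes. It was higher in SKBR3 for ATF3, BATF, FOSB, FOSL2 and JUND, where 46.8% of all genes were called higher, and lower for FOSL1 and JUNB, where 26.6% were called lower. The median log2 difference was 0.48 over the 10 genes and 0.22 over all genes. The library medians differed by 0.23 on the log2 scale. With each library centred on its median, the share of higher among all called genes fell from 63.8% to 49.7%, the 7 genes kept their direction and their call, and the differences of JUN and FOS turned negative (adjusted p = 0.214 and 0.111). Fold changes of covered length are given on the log2(bp + 1000) scale, and for the members the centred fold between the lines stands beside the first where the difference was called.

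FOS, the founding member of the family, is a textbook immediate early gene. Its promoter peak ranked at the 89.0th and 84.9th percentile in untreated SKBR3 and at 84.1 and 85.8 with TWEAK. In MDA-MB-453 it ranked at 91.8 and 91.4 untreated and at 89.2 and 87.6 with TWEAK. The lines met between 87.6 and 89.0, and the mean was 4.02 points lower in SKBR3 (SE 1.18, limma adjusted p = 0.0246). This call was lost without SKBR3 TWEAK replicate 1 (adjusted p = 0.0691), MDA-MB-453 untreated replicate 1 (0.0801), untreated replicate 2 (0.0688), TWEAK replicate 1 (0.0854) or TWEAK replicate 2 (0.0505). By the authors' fold enrichment over background the lines did not overlap, at 7.84 to 8.99 in SKBR3 and 11.6 to 15.7 in MDA-MB-453 (exact permutation test, two-sided p = 0.0286, the smallest that 4 against 4 allows). This was not particular to FOS. The fold enrichment at the promoters of FOSL1, FOSL2, JUN and JUND was also lower in SKBR3 without overlap. Those of FOSB, JUNB and ATF3 overlapped, and that of BATF was higher in SKBR3. How often this separation arises over all genes was not computed.

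The highest ranked peak near FOS was not at its promoter. A broad region 16.2 kb upstream (chr14:75251281-75262591) ranked between 92.7 and 96.7 in SKBR3 and between 98.7 and 99.3 in MDA-MB-453, without overlap (exact p = 0.0286). A smaller region 13.3 kb upstream followed the same order, at 50.8 to 66.8 in SKBR3 and 81.0 to 85.5 in MDA-MB-453. A region 12.4 kb downstream went the other way, at 88.1 to 94.3 in SKBR3 and 80.5 to 87.2 in MDA-MB-453. Any region whose values do not overlap between the lines has an exact permutation p of 0.0286. Of all regions in all 8 lists over the series, 35.3% ranked higher and 26.2% lower in SKBR3 without overlap. Here and at the genes below, regions held by all 8 lists were picked for description after their values were seen. The total covered length of the FOS window overlapped between the lines, at 17.2 to 21.3 kb and 17.7 to 20.9 kb (adjusted p = 0.662).

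FOSB encodes a FOS protein whose spliced form accumulates under repeated stimulation. Its promoter peak ranked at 98.1 and 97.2 in untreated SKBR3, and at 96.6 and 96.2 with TWEAK. In MDA-MB-453 the values were 94.9 and 95.7 untreated, and 94.7 and 94.8 with TWEAK. The SKBR3 values all lay above those of MDA-MB-453, by 1.99 points on average (SE 0.40, adjusted p = 0.00589), and the call was lost with lists of equal size (adjusted p = 0.0823, range over alternatives 0.00478 to 0.0823). The fold enrichment of the same peak leaned the other way, with overlap. It was 17.4, 19.1, 17.7 and 14.8 in SKBR3 and 20.6, 20.2, 18.6 and 17.9 in MDA-MB-453. Covered length was 49.7, 50.7, 54.7 and 50.7 kb in SKBR3, the longest of the 10 windows, against 24.6, 25.3, 24.9 and 24.5 kb in MDA-MB-453. The widest peak of the window measured 18874 to 20910 bp in SKBR3 and 4290 to 8048 bp in MDA-MB-453. The fold was 2.03 (95% interval 1.87 to 2.19, centred 1.73, adjusted p = 1.66e-06). Of the 15 regions of this window, 9 were promoters of other genes, among them ERCC1, RTN2 and VASP. The FOSB promoter region was covered for a mean of 3.80 kb in SKBR3 and 3.61 kb in MDA-MB-453. An upstream region at an ERCC1 start site was covered for 18.9 and 11.2 kb. A downstream region at the promoter of another gene (chr19:45505034-45529255), partly outside the window, was covered for 21.7 and 5.76 kb. The region 6.7 kb downstream of FOSB, at an ERCC1 start site, ranked at 97.5 to 98.4 in SKBR3 and 78.2 to 84.1 in MDA-MB-453, and a region 21.2 kb downstream, at RTN2, ranked at 73.7 to 81.7 and 38.9 to 43.8.

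FOSL1 encodes FRA-1, a FOS protein without a strong transactivation domain that is linked to invasive breast cancer. Neither untreated SKBR3 list held a FOSL1 promoter peak, and their nearest peaks began 6.66 and 6.74 kb downstream of the start of the gene. The TWEAK lists of SKBR3 held a peak of 271 bp at the 44.4th percentile and one of 290 bp at the 7.91st, which ended 90 and 235 bp before the start. All 4 MDA-MB-453 lists held a peak over the start itself, of 1202, 1220, 1113 and 1136 bp, at percentiles 51.1, 60.7, 57.8 and 51.6. The lines did not overlap, and the mean percentile was 42.2 points lower in SKBR3 (SE 8.04, adjusted p = 0.00446). These peaks were weak in both lines, with a fold enrichment of 3.97 and 2.70 in SKBR3 with TWEAK and of 4.62 to 5.66 in MDA-MB-453.

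The top ranked peak of the FOSL1 window belonged to other genes, CFL1 and MUS81, and lay between the 99.3rd and the 99.6th percentile in all 8 lists. Covered length was 16.5, 13.0, 14.0 and 12.2 kb in SKBR3 and 17.1, 17.3, 19.0 and 17.1 kb in MDA-MB-453, without overlap, a fold of 0.80 (95% interval 0.69 to 0.93, centred 0.68, adjusted p = 0.0144). The call was lost without MDA-MB-453 untreated replicate 1 (adjusted p = 0.0507), untreated replicate 2 (0.0521) or TWEAK replicate 1 (0.0629). A distal region 10.8 kb upstream (chr11:65911407-65912572), whose 2 AP-1 matches are printed above, was held by all 4 MDA-MB-453 lists at percentiles 24.1 to 46.2 and by no SKBR3 list.

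FOSL2 encodes FRA-2, the close relative of FRA-1. Its promoter ranked between 93.9 and 97.1 in SKBR3 and between 96.2 and 97.1 in MDA-MB-453, so the lines overlapped by rank (adjusted p = 0.228). The fold enrichment of the promoter peak did not overlap, at 12.3 to 18.3 in SKBR3 and 21.0 to 25.5 in MDA-MB-453. The window around the promoter also differed between the lines. Covered length was 18.8 and 16.6 kb in untreated SKBR3 and 25.9 and 22.97 kb with TWEAK, against 10.7, 11.6, 10.9 and 10.2 kb in MDA-MB-453. All SKBR3 values lay above all MDA-MB-453 values, a fold of 1.84 (95% interval 1.63 to 2.09, centred 1.57, adjusted p = 3.06e-05). SKBR3 lists held 7 to 9 peaks in the window and MDA-MB-453 lists 2 or 3. A region 39.2 kb downstream of the nearest FOSL2 start site (chr2:28434687-28439029) was in all 8 lists, at 98.9 to 99.1 in SKBR3 and 88.1 to 91.6 in MDA-MB-453 (exact p = 0.0286). In SKBR3 it outranked the promoter. A further 5 regions of this window were present in SKBR3 throughout and absent from MDA-MB-453. The promoter percentile was called lower in SKBR3 without SKBR3 TWEAK replicate 1 (limma, -1.33 points, adjusted p = 0.0161, range over alternatives 0.0161 to 0.428).

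JUN encodes c-Jun, the main partner of the FOS proteins. Its promoter ranked at 98.1, 97.4, 98.1 and 96.9 in SKBR3 and at 96.9, 96.4, 97.3 and 97.8 in MDA-MB-453, with overlap (adjusted p = 0.289). The fold enrichment of the promoter peak did not overlap, at 13.9 to 17.8 in SKBR3 and 21.5 to 24.1 in MDA-MB-453. A region 25.4 kb upstream (chr1:58809451-58817810), in no protein-coding gene, ranked above the promoter in all 8 lists, at 98.5 to 99.4 in SKBR3 and at 97.6 to 98.3 in MDA-MB-453 (exact p = 0.0286). Covered length was 11.9, 10.98, 13.4 and 12.7 kb in SKBR3 and 11.6, 11.8, 11.1 and 10.3 kb in MDA-MB-453 and was not called different (fold 1.08, 95% interval 0.97 to 1.21, centred 0.92, adjusted p = 0.169). In a window with 100 kb on each side it was lower in SKBR3 (limma log2 difference -0.35, adjusted p = 0.000846, range over alternatives 0.000846 to 0.659). In a window with 10 kb on each side it was lower as well, with a log2 difference of -0.46. The JUN promoter region was covered for 3269 to 5928 bp in SKBR3 and 5662 to 7192 bp in MDA-MB-453, with overlap.

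JUNB, a weaker activator that can hold JUN back, had the widest promoter peak of the family, 13.3 to 15.4 kb in the 8 lists. Its percentile was 99.2, 98.5, 99.4 and 99.1 in SKBR3 and 98.4, 98.6, 98.7 and 98.8 in MDA-MB-453, with overlap (adjusted p = 0.204). Ranked by fold enrichment in place of the score, it was called higher in SKBR3 (limma adjusted p = 0.0180, range over alternatives 0.0180 to 0.602). Covered length was 24.4, 24.7, 23.4 and 24.0 kb in SKBR3 and 27.4, 28.5, 28.8 and 31.1 kb in MDA-MB-453, without overlap, a fold of 0.84 (95% interval 0.77 to 0.92, centred 0.71, adjusted p = 0.00352). Of its 11 regions, 6 were promoters of other genes, and the JUNB promoter region also held a HOOK2 start site. The difference was not called within 10 kb of the gene (log2 difference -0.02, adjusted p = 0.721, range over alternatives 0.000344 to 0.721).

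JUND, the JUN protein that is made most steadily in resting cells, had the highest promoter rank in MDA-MB-453. There it lay at 99.5, 99.6, 99.4 and 99.7, and in SKBR3 at 98.3, 99.1, 99.0 and 98.5. The lines did not overlap, but the difference of -0.80 points (SE 0.30) missed the threshold over all genes (adjusted p = 0.0565) and passed it in 5 of 15 alternatives (range 0.0125 to 0.366), among them without SKBR3 untreated replicate 2 (0.0244) and without SKBR3 TWEAK replicate 1 (0.0403). The promoter peak was nonetheless wider in SKBR3, at 11103, 6291, 7308 and 7902 bp against 4829 to 5645 bp (exact p = 0.0286). Covered length was 33.2, 25.3, 25.8 and 22.9 kb in SKBR3 and 13.7, 15.5, 14.5 and 13.9 kb in MDA-MB-453, a fold of 1.79 without overlap (95% interval 1.53 to 2.10, centred 1.52, adjusted p = 0.000155). Part of this difference lay at the neighbouring gene LSM4. The region at its promoter was covered for a mean of 9.12 kb in SKBR3 and 5.64 kb in MDA-MB-453. A region overlapping an LSM4 exon was covered for 3.64 and 0.20 kb. The JUND promoter region was covered for 8.76 and 5.65 kb. A distal region 8.6 kb upstream (chr19:18290253-18294617) ranked at 82.9 to 94.1 in SKBR3 and 58.7 to 65.1 in MDA-MB-453 (exact p = 0.0286).

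**Figure D3:**
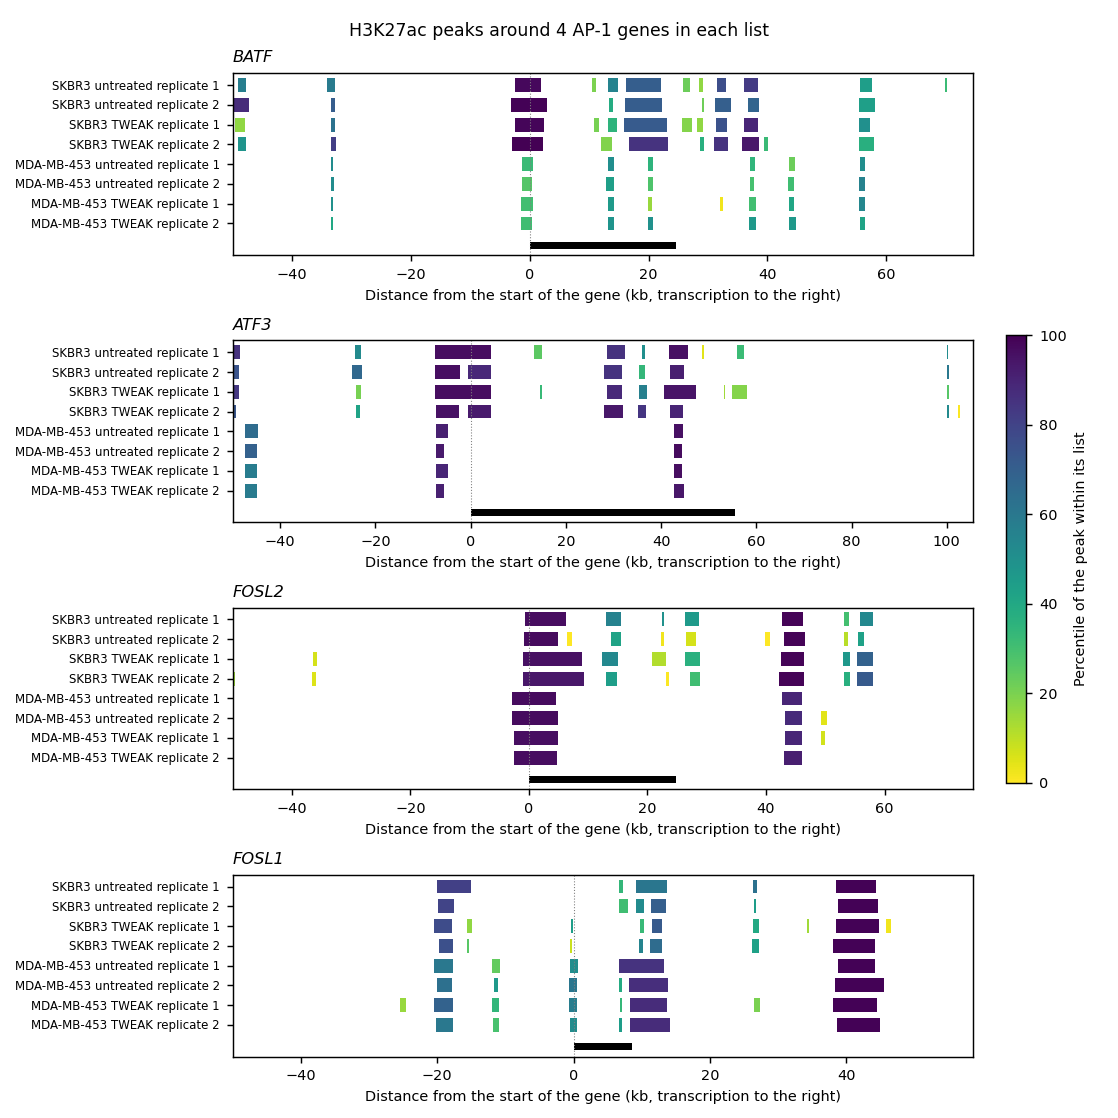
Peaks in the windows of BATF, ATF3, FOSL2 and FOSL1, with 1 row per list and the distance from the start of the gene in kb on the horizontal axis; colour is the percentile of the peak within its list and the black bar is the gene. At the start of ATF3 the 4 SKBR3 lists held a peak and the MDA-MB-453 lists did not. At FOSL1 the 4 MDA-MB-453 lists held a narrow peak over the start, and both SKBR3 TWEAK lists held a narrow one just upstream of it.

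ATF3, a stress-induced partner of JUN, has 7 annotated start sites, the first far upstream of the others. At the first, all 4 SKBR3 lists held a peak, at percentiles 96.8, 88.9, 96.5 and 93.0, which in both replicates numbered 1 was a single peak of 11.8 and 11.7 kb. No MDA-MB-453 list did, and their nearest peaks, at 91.4, 93.1, 89.5 and 91.1, ended 4.79, 5.58, 4.78 and 5.54 kb upstream. The 2 other SKBR3 lists held an upstream peak there as well, at 96.2 and 95.7. Near later start sites both lines had strong peaks, 42.7 to 44.8 kb past the first in MDA-MB-453 and 40.7 to 47.3 kb past it in SKBR3, at 90.0 to 96.0 in SKBR3 and 93.9 to 97.0 in MDA-MB-453. The promoter percentile of ATF3 takes the stronger of its start sites and was 91.4 to 96.8 in SKBR3 and 93.9 to 97.0 in MDA-MB-453 (adjusted p = 0.459), so it did not show the difference at the first.

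Covered length of the ATF3 window was 26.8, 21.5, 29.9 and 20.5 kb in SKBR3 and 6.89, 5.90, 6.59 and 6.30 kb in MDA-MB-453. The groups did not overlap, and the fold of 3.43 (95% interval 2.76 to 4.26, centred 2.92, adjusted p = 1.39e-05) was the largest of the 10 genes. SKBR3 lists held 8 to 10 peaks and every MDA-MB-453 list held 3. An intronic region 10.8 kb before the next start site (chr1:212593435-212597832) ranked at 85.9, 85.2, 88.4 and 93.5 in SKBR3 and was in no MDA-MB-453 list. It was the highest ranked of the 16 regions found only in SKBR3, and the AP-1 match printed for the ATF3 intron lies within it. Next came a region 48.5 kb upstream of ATF3, at 73.2 to 85.9, then one 49.9 kb upstream of BATF3 in an intron of NSL1 (20.6 to 77.1), one 52.3 kb downstream of the nearest FOSL2 start site (42.7 to 72.0) and a second ATF3 intronic region (33.8 to 84.5). A region 44.7 kb upstream of ATF3 had the opposite pattern, at 58.4 to 69.3 in MDA-MB-453 and in no SKBR3 list.

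BATF showed the widest difference of any promoter of the family. Its percentile was 97.8, 99.3, 98.8 and 99.7 in SKBR3 and 32.4, 26.8, 30.4 and 30.7 in MDA-MB-453. The 2 sets of values lay far apart, with a mean difference of 68.8 points (SE 2.18, adjusted p = 2.68e-06). The promoter peak was 4307 to 5992 bp wide in SKBR3 and 1701 to 2026 bp in MDA-MB-453, and its fold enrichment was 15.7 to 29.2 against 3.10 to 3.35. Covered length was 23.5, 23.8, 25.6 and 24.8 kb against 6.82, 7.07, 7.64 and 7.36 kb, a fold of 3.10 (95% interval 2.81 to 3.42, centred 2.63, adjusted p = 6.75e-07). The call on each measure held in all alternatives run, 15 for the rank and 16 for the length.

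Of the other regions around BATF, 6 in all 8 lists could be compared between the lines, and 4 of them ranked higher in SKBR3 without overlap. Over the series, 35.3% of regions in all 8 lists did so. Of these 4, the region chr14:75438933-75475151, which overlaps an exon of JDP2, lay mostly outside the BATF window. Within the gene, a region 15.8 kb past the nearest start site ranked at 70.3 to 85.4 in SKBR3 and 15.3 to 49.8 in MDA-MB-453. Downstream, a region 35.6 kb from the nearest start site (chr14:75558119-75561092) ranked at 67.8 to 93.7 and 29.6 to 46.4 (exact p = 0.0286 for each). An intronic region 11.8 kb past the nearest start site overlapped, at 19.0 to 55.4 and 43.8 to 50.8, as did the FLVCR2 promoter. A region 43.4 kb downstream was held only by MDA-MB-453, at 22.3 to 46.4. Genes whose promoter percentile was most like that of BATF over the 8 lists were S100A9 (mean absolute difference 2.30 points), PDE4D (3.06) and SMIM6 (3.27). For FOSL1, the other gene with the largest spread, they were SLC45A4 (3.79), UBE2L6 (4.03) and SHQ1 (5.20).

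BATF3 had little acetylation in either line. The window was covered for 0.67, 1.25, 1.27 and 2.06 kb in SKBR3 and 1.44, 1.43, 1.53 and 1.53 kb in MDA-MB-453, with overlap (adjusted p = 0.408). A region 21.0 kb upstream (chr1:212720876-212722519) was in all 8 lists and ranked at 45.4 to 62.6 in SKBR3, below the 74.2 to 78.8 of MDA-MB-453 (exact p = 0.0286). Centred on library medians, covered length was lower in SKBR3 (fold 0.78, adjusted p = 0.0280), and with 100 kb on each side it was higher (log2 difference 1.199, adjusted p = 3.05e-05, the lowest over alternatives, which reached 0.855). The window overlaps that of ATF3.

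Over the 99 regions, 35 were in all 8 lists (35.4%, against 23.3% of all regions), and 20 were in 1 list. Regions present throughout SKBR3 and absent from MDA-MB-453 numbered 16, or 16.2%, against 14.1% of all regions, and the reverse held for 4, or 4.04%, against 10.5%. The 4 were the region upstream of ATF3, the region upstream of FOSL1, the region downstream of BATF and a region in an exon of RTBDN in the JUNB window. Of the 35 regions in all 8 lists, the percentiles of the lines did not overlap for 17 that were higher in SKBR3, where 35.3% of such regions over the series were, and for 8 that were lower, where 26.2% were.

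To ask whether TWEAK altered acetylation at these genes, treated and untreated libraries of each line were compared. No member was called different with TWEAK in either line by either measure (limma, adjusted p under 0.05). For covered length in SKBR3, 0 of 10 genes were called, where 1.74% of all genes were, and 1 of the 10 had an unadjusted p under 0.05, as did 2753 of all 18549. In MDA-MB-453, 0 of 10 were called, where 0% of all genes were, none had an unadjusted p under 0.05, and 380 of all genes did. For the promoter percentile, 0 of 9 were called in SKBR3 (0.722% of all genes; unadjusted, 1 of the 9 and 1716 of all 13571) and 0 of 9 in MDA-MB-453 (0.0442% of all genes; unadjusted, 0 of the 9 and 414 of all). The difference between the lines in their response to TWEAK was called for 0 of 10 by covered length (0% of all genes; unadjusted, 1 of the 10 and 1634 of all) and 0 of 9 by percentile (0.169% of all genes; unadjusted, 0 of the 9 and 1169 of all). With 2 libraries against 2, an exact permutation test cannot give a p below 0.333.

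**Figure D4:**
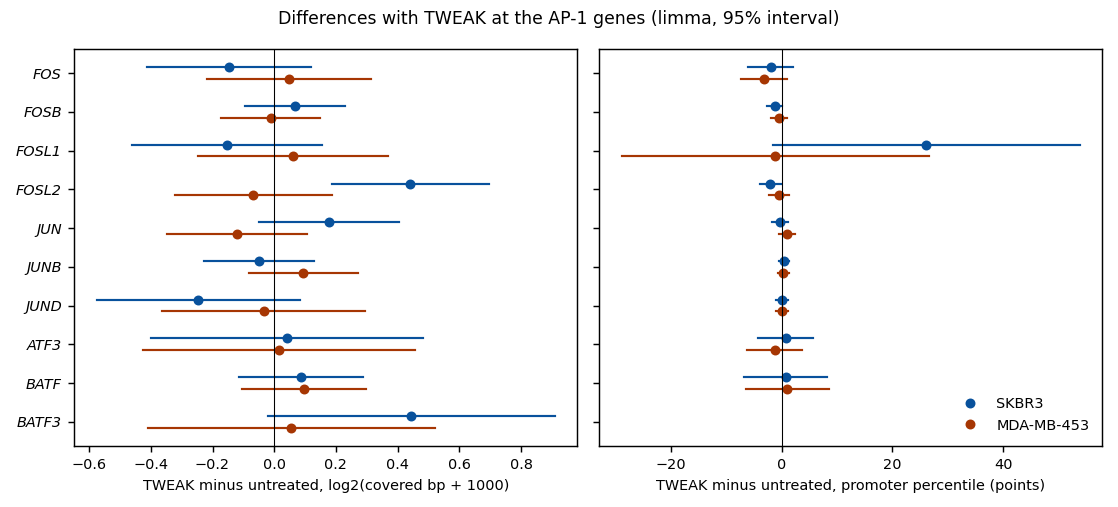
Difference with TWEAK for each gene, as log2(covered bp + 1000) on the left and promoter percentile on the right, with points for the estimate, bars for the 95% interval and colour for the cell line. FOSL2 in SKBR3 is the only gene whose interval lies wholly above 0 for covered length, and BATF3 has no promoter percentile.

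FOSL2 had the lowest unadjusted p with TWEAK in SKBR3, by both measures. Its promoter peak was 7015 and 5881 bp wide in the untreated libraries and 9906 and 10202 bp with TWEAK, without overlap (exact p = 0.333), and 7248 to 7681 bp in MDA-MB-453. The covered length of the window, given above, had a fold of 1.36 with TWEAK (95% interval 1.14 to 1.62, centred 1.27, limma adjusted p = 0.114). In MDA-MB-453 the fold was 0.95 (95% interval 0.80 to 1.14), and the difference between the lines had an unadjusted limma p of 0.0121 and an adjusted p of 0.369. The percentile of the same promoter differed by -2.06 points with TWEAK (SE 0.76, limma adjusted p = 0.342), opposite in sign to the covered length. When only peaks with a q-value under 1e-05 were kept, the covered length of FOSL2 was called higher with TWEAK (log2 difference 0.80, adjusted p = 0.0193, range over alternatives 0.0193 to 0.257). Without SKBR3 TWEAK replicate 1 the percentile was called lower (by limma, -3.09 points, adjusted p = 0.0345, range 0.0345 to 0.624), where the remaining treated library is assumed to vary like the other groups.

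Regions gained with TWEAK, held by both treated lists of a line and neither untreated list, numbered 2 of 99 in SKBR3 (3.72% of all regions). They were the FOSL1 promoter (chr11:65899952-65901218) and a region 35.7 kb upstream of FOSL2 (chr2:28355942-28356700), the latter at percentiles 6.38 and 5.41. Both were weak, and at FOSL1 the SKBR3 peaks lay beside the start site, not over it as in MDA-MB-453. In SKBR3 no region was lost (1.11% of all regions). In MDA-MB-453, 0 were gained (0.679%) and 0 lost (0.701%).

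The FOSL1 promoter percentile was 0 in both untreated SKBR3 lists and 44.4 and 7.91 with TWEAK, a mean difference of 26.1 points that did not pass the test (SE 11.4, limma adjusted p = 0.426). It passed without SKBR3 TWEAK replicate 2 (44.4 points, adjusted p = 0.0469, range over alternatives 0.0469 to 1), where 1 treated library is set against untreated values of 0 and is assumed to vary like the other groups. The covered length of the FOSL1 window was 16.5 and 13.0 kb untreated and 14.0 and 12.2 kb with TWEAK. Within 10 kb of the gene it was called lower with TWEAK (limma log2 difference -0.73, adjusted p = 0.0353, range 0.0353 to 1). That span holds a region at the promoters of CCDC85B and FIBP, which also overlaps an exon of FOSL1. It was covered for 5148 and 4536 bp untreated and for 2103 and 2356 bp with TWEAK. The FOSL1 promoter region went the other way, from 0 bp in both untreated lists to 271 and 290 bp. For the other genes of SKBR3 the log2 difference of covered length ranged from -0.25 at JUND to 0.44 at BATF3, with intervals that held 0. In MDA-MB-453 it ranged from -0.12 at JUN to 0.10 at BATF, and all 10 intervals held 0.

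Beyond the family, 40 genes of AP-1 signalling were examined: dimer partners, the kinases and phosphatases upstream, other immediate early genes and AP-1 targets. Between the lines, covered length was higher in SKBR3 for 23 and lower for 7 of the 39 tested, and promoter percentile was higher for 11 and lower for 10 of the 35 tested. Over all genes the shares were 46.8% and 26.6% by length and 32.8% and 31.1% by percentile. All 8 dimer partners had longer covered length in SKBR3, also when centred, where the 39 genes gave 22 higher and 10 lower. By percentile 2 of the 8 were higher and 2 lower, with a median of -1.63 points. The median log2 difference of covered length was 0.51 over the 39 genes and 0.22 over all genes. The 3 higher genes with the lowest adjusted p were PLAU, the urokinase gene (3.06-fold, adjusted p = 8.11e-07), CEBPB, a partner (2.48-fold, 4.88e-06), and MAP3K8, a kinase of the ERK and JNK pathways (2.99-fold, 5.24e-06). The 3 lower were DUSP6 (0.19-fold, 3.30e-06) and DUSP10 (0.35-fold, 3.21e-05), phosphatases of ERK and of JNK and p38, and ELK1, a factor that drives FOS (0.71-fold, 0.00546).

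By promoter percentile, PLAU (72.9 points higher in SKBR3, limma adjusted p = 3.50e-06), its receptor PLAUR (55.0 points, 2.39e-05) and ATF7 (17.0 points, 5.61e-05) led the higher genes. The lower were led by DUSP6 (-44.0 points, limma adjusted p = 7.97e-06), MAPK14, the p38 kinase (-28.7 points, 0.000146), and MAP3K5 (-19.0 points, 0.000686). DUSP6 covered 3.44, 2.03, 2.37 and 3.05 kb in SKBR3 and 18.5, 18.5, 18.6 and 18.2 kb in MDA-MB-453, and PLAU 35.2 to 40.3 kb and 10.8 to 12.2 kb.

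With TWEAK, 1 of the 39 genes was called in SKBR3 by covered length, where 1.74% of all genes were. For MDA-MB-453 the count was 0 of the 39, where 0% of all genes were called. By promoter percentile 0 of 35 were called in either line, against 0.722% of all genes for SKBR3 and 0.0442% for MDA-MB-453. The called gene was HMOX1, haem oxygenase 1. Its window was covered for 13.5 and 11.4 kb untreated and 19.8 and 21.7 kb with TWEAK in SKBR3. The MDA-MB-453 libraries had 6.14 to 7.72 kb there. The SKBR3 fold was 1.62 (95% interval 1.33 to 1.96, limma adjusted p = 0.0421). The call was lost in 13 of 16 alternatives, the omission of any 1 library other than SKBR3 TWEAK replicate 1 among them (adjusted p 0.0651 to 0.156 for these 7, and 0.0403 to 0.629 over all alternatives).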

How the data were processed

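Chromatin was immunoprecipitated with an H3K27ac antibody in 8 libraries. Reads were aligned by the authors with Bowtie2 (hg38), peaks were called by them in each library with MACS2 against input, and bedtools served to drop blacklisted peaks. Trimmomatic and deepTools are named in the submitters' processing notes, with no versions. Each deposited list has 9 columns, with fold enrichment (a ratio), −log10 values of p and q, and a score in whole numbers. The score was checked to be 10 times the −log10 q, to within 1, on every line. The layout is that of MACS2 broad peaks, and the calling options are not given in the sources used here. The deposited −log10 q served for the stricter threshold and the deposited −log10 p was not used.

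The study compared signal with DiffBind, which needs reads. In its place, covered length and promoter percentile of every protein-coding gene were fitted with limma 3.58.1 (R 4.3.3) in one model of 4 group means over all 8 libraries. Low values were not filtered beyond a peak in at least 1 list. The contrasts were TWEAK against untreated in each line, SKBR3 against MDA-MB-453, and the difference between lines in the TWEAK response. Tests were two-sided with Benjamini-Hochberg adjustment. The fit was tested on simulated data. Single values were compared by exact permutation. Python 3.11.15 with pandas 2.3.3 was used elsewhere.

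Peaks overlapping by 1 bp were merged over the 8 lists. Sequence names in the lists (58) all matched the hg38 reference. No 2 lists shared more than 2 identical peaks, so no library was taken as a repeat of another. Read depth is unknown, so no counting intervals are given, and a region missing from a list may have had signal below the caller's threshold. The study's methods give at least 2 biological replicates, but the labels do not tie a library to a culture, so p-values may measure technical spread only.

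The members and all gene lists were chosen with earlier results of these data known. All 10 members were named; other pathway genes were named as the 3 called in each direction with the lowest adjusted p, regions as those gained or lost and the 5 line-specific ones with the highest mean percentile, and like genes by the mean absolute difference of the promoter percentile. Further regions were chosen after their values were seen.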

Additional observations from a re-analysis of the deposited data

Results flagged for a closer look

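At 3 members every TWEAK library lay on one side of the untreated libraries in SKBR3 and on the other side in MDA-MB-453. The 3 came from a screen of all members on several quantities, covered length and promoter width among them. With 2 libraries against 2, such a separation within a line has an exact permutation p of 0.333. How often the pattern arises over all genes was not computed, so whether 3 exceeds chance was not tested. The covered length of JUN was 1.62 kb longer with TWEAK in SKBR3 and 1.02 kb shorter in MDA-MB-453, a difference of 2.63 kb between the lines (limma adjusted p = 0.605). That of JUNB was 0.85 kb shorter in SKBR3 and 1.97 kb longer in MDA-MB-453, a difference of -2.82 kb (limma adjusted p = 0.794). The FOSL1 promoter peak was 280.5 bp wider with TWEAK in SKBR3, where untreated libraries had none, and 86.5 bp narrower in MDA-MB-453, a difference of 367 bp that was not tested.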

How the results depend on the processing

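Of 34 single-gene differences called under some setting, 478 alternatives kept direction and call, 23 lost the call, 14 gained one and 11 turned sign. Another 55 differences of members were never called, and 28 of these changed sign under at least 1 alternative. The values that turned sign were, for FOS covered length between lines, -0.19 with q under 1e-05 (adjusted p = 0.0457), -0.062 with lists of equal size, -0.19 when centred, -0.0086 without SKBR3 TWEAK replicate 1 and -0.017 without MDA-MB-453 TWEAK replicate 2 (up to 0.097 without other libraries). For JUN they were -0.46 in a 10 kb window, -0.35 in a 100 kb window and -0.12 when centred, and for BATF3 1.199 in a 100 kb window. For FOSL1 with TWEAK in SKBR3, covered length was 0.0082 without SKBR3 untreated replicate 1 (down to -0.31 without others), and the percentile was 0 with q under 1e-05, since no SKBR3 peak was left. The causes were not tested.

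Members called between lines numbered 6 to 7 by covered length and 3 to 5 by percentile when 1 library was left out. With TWEAK in SKBR3 they numbered 1 by covered length with q under 1e-05 (FOSL2) and 1 in a 10 kb window (FOSL1), and 0 to 1 by percentile when 1 library was left out. Leaving out a library also changed the number of all genes called with TWEAK in SKBR3, from 323 to between 16 and 1618 by covered length and from 98 to between 18 and 969 by percentile. Regions gained in SKBR3 numbered 0 with lists of equal size, 1 in a 10 kb window or with at least 50% of the region covered, 4 in a 100 kb window and 2 to 7 without 1 library, where a pattern asks for fewer lists. Regions lost in SKBR3 numbered 1 with lists of equal size, 2 with 50% covered, 1 with peaks merged within the line, an alternative chosen after seeing the data, and 0 to 5 without 1 library. In MDA-MB-453, 2 were gained with q under 1e-05, and without 1 library 0 to 3 were gained and 0 to 1 lost. SKBR3-only regions numbered 4 with q under 1e-05 and 6 in a 10 kb window, and MDA-MB-453-only regions 0 in a 10 kb and 8 in a 100 kb window.

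The labels do not say whether replicate numbers pair libraries. Replicate differences of untreated and of TWEAK libraries were correlated over genes. By covered length the correlation was 0.47 for SKBR3 and -0.036 for MDA-MB-453, and by percentile 0.24 and -0.054. In SKBR3 libraries of the same number thus shared part of their difference, and in MDA-MB-453 they did not. The main fit left such sharing out. With the replicate number as a block, 7 members were called between lines by covered length, 4 by percentile and 0 with TWEAK, as without it, while all genes called with TWEAK in SKBR3 went from 98 to 0 by percentile and from 323 to 438 by covered length.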
